A study of Mus musculus with 8 samples.

Results

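Imprinted genes were compared between LLC1 and MLE12, mouse cell lines of the lung. The genes were a list of 42 symbols chosen by name, and 41 of them had a row among the 43346 genes of the deposited table. No row carried the name Peg13, which was not analysed here. LLC1 is the Lewis lung carcinoma line, from a tumour of a C57BL mouse. MLE12 is an alveolar epithelial line from a tumour of a transgenic mouse in which the surfactant protein C promoter drove SV40 large T antigen. Both were obtained from ATCC, received no treatment and were harvested before full confluence, and poly-A RNA was sequenced in 4 libraries of LLC1 and 4 of MLE12. Each group is a single line, so the effects of line, donor animal and strain cannot be told apart. Nothing in the labels ties the libraries to separate cultures, so the p-values measure the spread between these libraries, which may be technical.

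An imprinted gene is transcribed mainly from the chromosome inherited from the mother or mainly from that of the father. The choice is set by DNA methylation laid down in the germ line at control regions, which often govern several neighbouring genes of both kinds together with a long non-coding RNA. Most imprinted genes act in fetal and placental growth, metabolism and the brain, and many are switched down in the lung and other organs after birth. The counts here are totals per gene. They do not separate the parental alleles, so they measure neither imprinting nor its loss, and "paternally expressed" or "maternally expressed" below is background knowledge from mouse tissues.

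The libraries held 46.8 to 55.3 M counts in LLC1 and 48.6 to 76.7 M in MLE12. The imprinted genes took 0.133% to 0.149% of all counts in LLC1 and 0.147% to 0.152% in MLE12. Gnas alone, with 130120 counts over LLC1 and 221040 over MLE12, made up a large part of these shares. Levels are given in CPM, counts scaled for library depth and composition, as mean ± SD with n = 4 per line. Log2 fold changes are LLC1 over MLE12 with their standard errors, and each adjusted p-value was obtained with the quasi-likelihood test of edgeR, adjusted by Benjamini-Hochberg over all 18546 genes tested. A count of 0 in all libraries of a line allowed up to 0.0147 CPM in LLC1 and 0.0110 CPM in MLE12 (3 counts over the line), which covers counting error only. A fold given as "at least" divides the observed level of the other line by this limit. It leaves out the counting error of that observed level, so the true fold can be lower. The alveolar type II markers Sftpc, Sftpb, Nkx2-1, Abca3 and Lpcat1 summed to 88.6 to 97.1 CPM in LLC1 libraries and 391 to 417 CPM in MLE12 libraries. Sftpc itself stood at 0.154 ± 0.0549 CPM in LLC1 against 23.6 ± 1.60 CPM in MLE12. The 4 leukocyte markers summed to at most 0.0380 CPM in any LLC1 library and 0.0905 CPM in any MLE12 library. The 4 endothelial markers summed to 0.456 to 0.898 CPM in LLC1 against 3.02 to 3.78 CPM in MLE12, of which Tek made up 2.95 ± 0.284 CPM in MLE12. Of the 5 mesenchymal markers Vim, Col3a1, Pdgfra and Twist1 were higher in LLC1, while Col1a1 was higher in MLE12 (0.313 ± 0.0164 CPM in LLC1 against 17.5 ± 0.625 CPM in MLE12), and their sum, mostly Vim, was 5310 to 5720 CPM in LLC1 libraries and 934 to 983 CPM in MLE12 libraries. Of the 4 general epithelial markers Krt8 and Krt18 were higher in LLC1, at 0.97 and 8.34 on the log2 scale, and Cdh1 and Epcam in MLE12, at -8.11 and -6.94. Their sum was 481 to 516 CPM in LLC1 libraries and 259 to 272 CPM in MLE12 libraries. The part of these differences in cell character in the results that follow was not tested.

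Upstream sequences are shown first for members whose levels differed widely between the lines. They are the 250 bases before the RefSeq transcription start (GRCm38.p6), in the direction of transcription, and capitals mark CG dinucleotides, the sites of DNA methylation. The first 4 belong to genes that were higher in LLC1, and the last pair to genes that were higher in MLE12.

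Peg3: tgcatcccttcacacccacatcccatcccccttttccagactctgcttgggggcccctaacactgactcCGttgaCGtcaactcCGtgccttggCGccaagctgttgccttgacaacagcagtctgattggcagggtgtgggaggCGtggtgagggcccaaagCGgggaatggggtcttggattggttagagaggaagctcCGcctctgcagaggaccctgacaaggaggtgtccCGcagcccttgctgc

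Snrpn and Snurf: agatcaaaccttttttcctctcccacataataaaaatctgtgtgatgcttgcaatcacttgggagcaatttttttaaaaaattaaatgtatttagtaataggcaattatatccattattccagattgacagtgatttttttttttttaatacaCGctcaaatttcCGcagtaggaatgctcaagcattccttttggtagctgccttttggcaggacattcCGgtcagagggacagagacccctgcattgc

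Ndn: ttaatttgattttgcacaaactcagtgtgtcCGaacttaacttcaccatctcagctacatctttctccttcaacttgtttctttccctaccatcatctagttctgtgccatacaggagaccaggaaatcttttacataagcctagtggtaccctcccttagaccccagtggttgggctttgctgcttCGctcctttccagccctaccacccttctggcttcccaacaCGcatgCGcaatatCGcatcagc

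Peg12: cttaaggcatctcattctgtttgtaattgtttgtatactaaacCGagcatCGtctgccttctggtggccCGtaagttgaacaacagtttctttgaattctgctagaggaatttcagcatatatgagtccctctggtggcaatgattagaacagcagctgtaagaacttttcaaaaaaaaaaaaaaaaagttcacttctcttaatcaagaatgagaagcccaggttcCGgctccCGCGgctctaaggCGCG

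Plagl1: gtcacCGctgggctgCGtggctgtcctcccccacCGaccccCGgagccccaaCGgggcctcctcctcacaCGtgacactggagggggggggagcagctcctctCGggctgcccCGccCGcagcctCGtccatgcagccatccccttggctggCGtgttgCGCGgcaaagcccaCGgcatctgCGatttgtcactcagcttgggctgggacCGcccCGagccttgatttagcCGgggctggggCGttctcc

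Zdbf2: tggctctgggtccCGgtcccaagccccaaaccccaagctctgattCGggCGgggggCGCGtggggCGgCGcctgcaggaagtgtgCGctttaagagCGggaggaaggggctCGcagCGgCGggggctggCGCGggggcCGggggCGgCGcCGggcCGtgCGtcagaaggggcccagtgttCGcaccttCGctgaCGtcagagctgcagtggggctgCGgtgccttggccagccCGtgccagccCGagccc

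The Peg3 sequence lies on the minus strand at chr7:6730420-6730669. It shares 163 bases with the upstream window of Usp29, which is transcribed the other way. The sequence of Snrpn and Snurf, from which both transcripts start, is on the minus strand at chr7:60005200-60005449. It is 1 of 4 windows of Snrpn. That of Ndn is on the plus strand at chr7:62348027-62348276 and that of Peg12 on the minus strand at chr7:62464511-62464760. The Plagl1 window is on the plus strand at chr10:13090582-13090831, and that of Zdbf2, the nearer to the gene body of 2 in the table, on the plus strand at chr1:63273019-63273268. The 4 windows of genes higher in LLC1 held 3 to 8 CG dinucleotides, and those of Plagl1 and Zdbf2 held 19 and 26. The farther Zdbf2 window held 13. Among the other members past a fold of 2, windows of those higher in LLC1 held 8 and 40 (Grb10), 12 (Blcap), 8 (Dlk1) and 5 (Kcnq1ot1). Windows of those higher in MLE12 held 8 and 35 (Ppp1r9a), 16 (Cd81) and 17 (Tssc4). The median over all 32851 RefSeq windows was 6, and the median over the 47 windows of the 34 members that matched was 10. The motif TGCCGC, the core bound by the imprint-protecting zinc finger protein ZFP57, was sought on both strands. It occurred in 8 of the 47 member windows, beside 8.68% of all windows. Of the 6 windows printed that of Plagl1 held it, and the farther Zdbf2 window held 3 copies. A CTCF motif was in 0 member windows and in 0.0335% of all windows. The YY1 motif GCCATNTT was in those of Mkrn3 and Ube3a, and in 3.91% of all windows.

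Of the 41 imprinted genes with a row, 28 had enough counts to be tested. Among these, LLC1 had the higher level for 17 and MLE12 for 8, and Copg2, Nap1l5 and Sgce were not called. Over all genes tested 81.6% were called, 40.7% higher in LLC1 and 40.9% higher in MLE12, beside 89.3% of the tested imprinted genes, 60.7% higher in LLC1 and 28.6% higher in MLE12. Past a fold of 2 stood 10 imprinted genes toward LLC1 and 5 toward MLE12, in all 53.6% of those tested, beside 33.7% of all genes (16.7% toward LLC1 and 16.9% toward MLE12). Kcnq1ot1 was among the 10 by a narrow margin, as described with its domain. For 16 tested members every LLC1 library was above every MLE12 library and for 8 the reverse held, beside 37.7% and 38.7% of all genes tested, together 76.3%. The median log2 fold change was 0.61 for the tested imprinted genes and 0.02 for all genes tested. A gene that is near 0 in both lines is left out of these counts and a gene high in a single line enters them, so they describe the tested members and not the list. The other 13 members had too few counts, and 15 of the 41 averaged under 1 CPM in both lines. In bulk RNA, fewer cells that express a gene and less RNA per cell cannot be told apart.

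**Figure D1:**
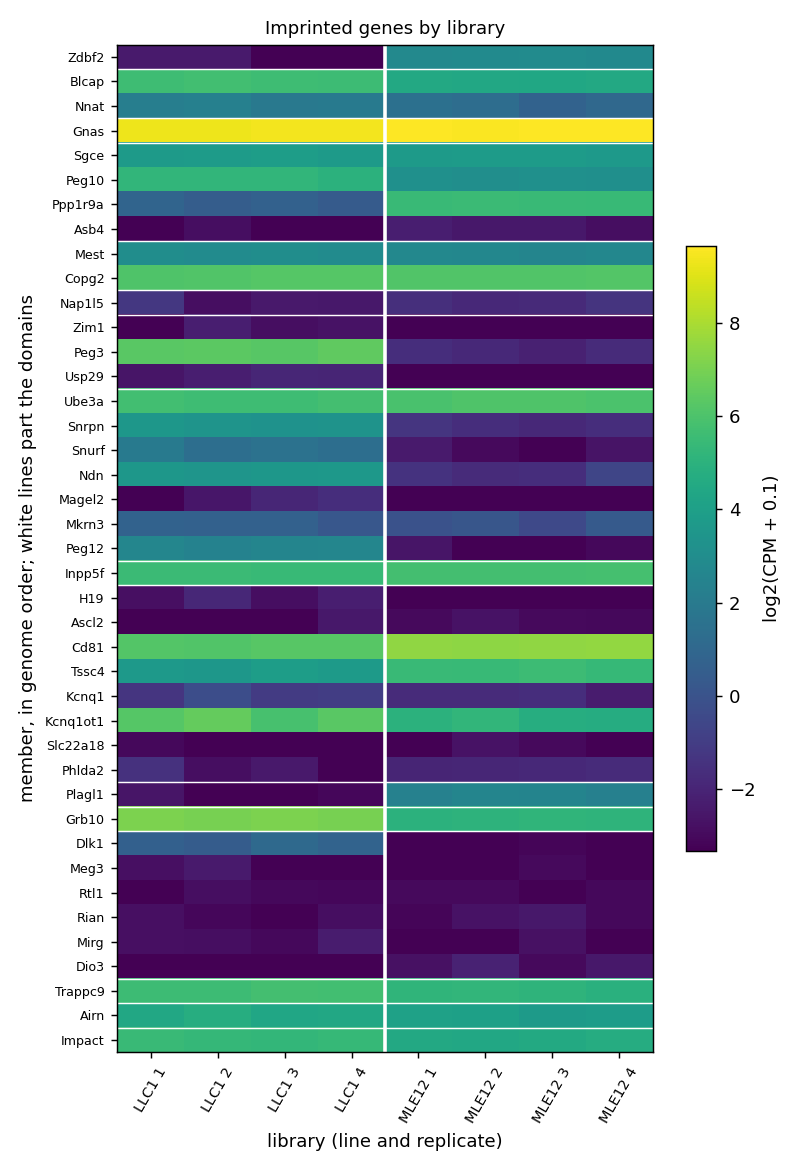
Level of the 41 imprinted genes (rows, in genome order) in the 4 LLC1 and 4 MLE12 libraries (columns) as log2(CPM + 0.1). The blocks of Peg3, Snrpn, Snurf, Ndn and Peg12 are bright in LLC1 and dark in MLE12, Zdbf2, Ppp1r9a and Plagl1 are the reverse, and most of the chromosome 12 and distal chromosome 7 genes are dark throughout.

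By the parent from which the genes are usually expressed, 17 paternally expressed genes were tested, of which LLC1 had the higher level for 13 and MLE12 for 2, Plagl1 and Zdbf2, and 2 were not called. Over all genes tested 40.7% were higher in LLC1 and 40.9% in MLE12. Of 13 maternally expressed genes with a row only 4 could be tested, with Kcnq1 higher in LLC1 and the other 3, Ppp1r9a, Cd81 and Tssc4, higher in MLE12. The border of this class is loose. Ppp1r9a was counted in it although it is maternally expressed in some tissues only, while Copg2, of which the same holds, was counted as tissue dependent. Grb10, maternally expressed outside the brain and higher in LLC1, was also counted as tissue dependent. The split of the 4 maternally expressed genes thus depends on how genes were assigned. The 7 genes whose imprint depends on tissue or isoform were split, with 3 toward LLC1, 3 toward MLE12 and 1 not called. Members of a domain share regulation and several share reads, so these counts are a description without a test.

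**Figure D2:**
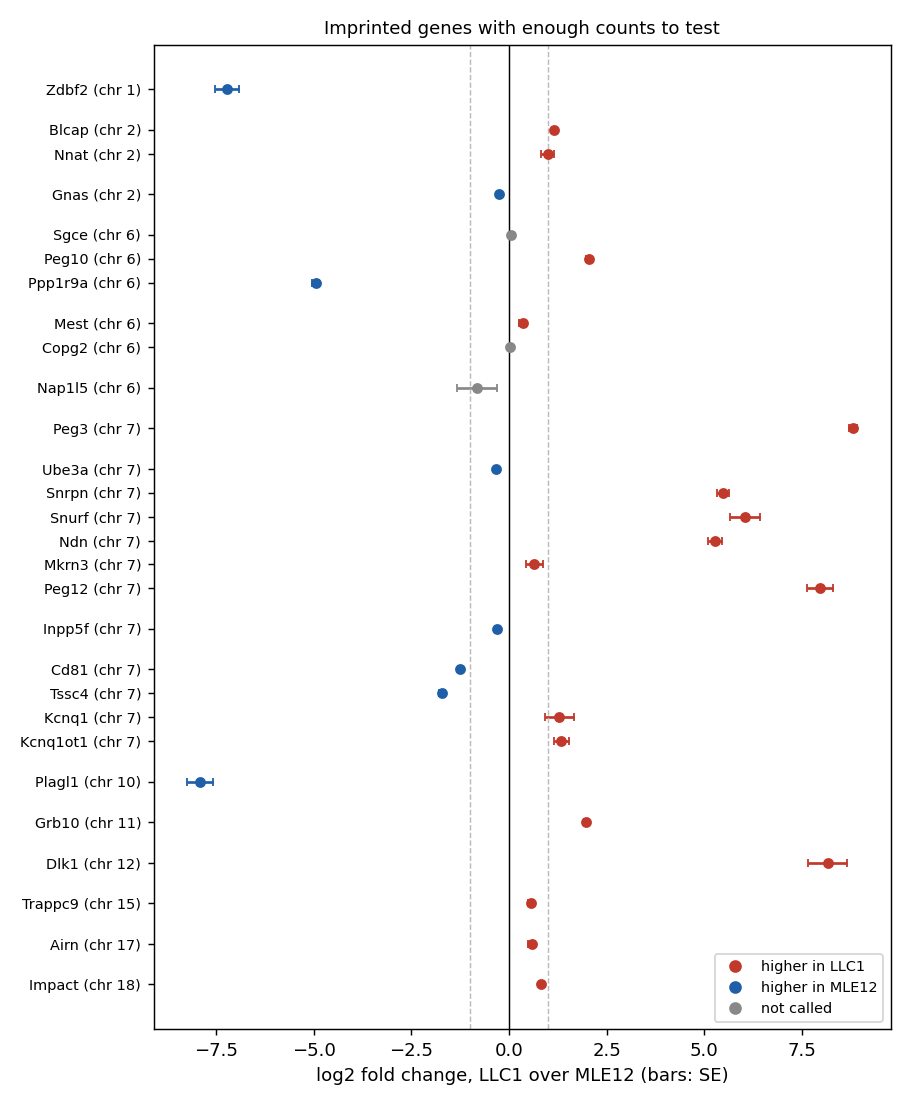
Log2 fold change of LLC1 over MLE12 with its standard error for the 28 tested imprinted genes, in genome order with gaps between domains. Points right of 0 are higher in LLC1, and dashed lines mark a fold of 2. Values run from -7.92 (Plagl1) to 8.81 (Peg3).

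Peg3, a paternally expressed zinc finger gene of maternal behaviour and growth control, is on chromosome 7 (ENSMUSG00000002265, 6703892 to 6730421, mm10). It had 78.8, 84.3, 76.5 and 89.3 CPM in the LLC1 libraries and 0.220, 0.186, 0.127 and 0.200 CPM in the MLE12 libraries. Every LLC1 library was far above every MLE12 library, and the MLE12 level was 0.223% of that in LLC1. The log2 fold change was 8.81 ± 0.10 (adjusted p = 1.4e-22). Usp29, a deubiquitinase gene that starts in the same promoter in the opposite direction, had 25 counts over the LLC1 libraries and 0 over the MLE12 libraries, at least 11.1-fold higher in LLC1. Its row covers only the part of the gene that begins 231 kb from that promoter. Zim1, a maternally expressed zinc finger gene beside Peg3, had 11 counts over LLC1 and 0 over MLE12, at least 4.88-fold higher in LLC1. LLC1 replicate 1 held no Zim1 count, so for Zim1 the lines overlapped at 0. Usp29 and Zim1 were both too low to be tested. Over the MLE12 libraries Peg3 had 51 counts. The 2 tested neighbours of this domain, Zfp954 and Zfp773, which were named after their values were seen, were higher in MLE12, at -0.37 ± 0.09 and -2.68 ± 0.30 on the log2 scale.

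In the Snrpn to Ndn domain of central chromosome 7, the counterpart of the human Prader-Willi and Angelman region, 4 paternally expressed genes were together far higher in LLC1, while Mkrn3 and Ube3a differed by less than 2-fold. Snrpn encodes a core protein of the splicing machinery (ENSMUSG00000000948, 59974149 to 60005064). It had 11.7, 10.2, 9.57 and 10.02 CPM in LLC1 against 0.297, 0.225, 0.178 and 0.220 CPM in MLE12. Snurf, a small reading frame of the same transcript, had 3.97, 2.47, 2.85 and 2.51 CPM in LLC1 against 0.0905, 0.0265, 0 and 0.0600 CPM in MLE12. The log2 fold change was 5.48 ± 0.16 for Snrpn and 6.04 ± 0.38 for Snurf. Snurf had 12 counts in MLE12, 7 of them in replicate 1, and without that library its log2 fold change was 6.77. They are not separate evidence, since all 216 exonic bases of Snurf lie within Snrpn. A further gene ID with the name Snrpn had 1963 counts in LLC1 and 67 in MLE12, close to the 2043 and 65 of the ID used.

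Ndn lies 2.37 Mb from Snrpn, counted between the lower ends of the gene models, and Peg12 lies beyond Ndn. Both showed the same direction as Snrpn. Ndn, which encodes the growth-restraining protein necdin, had 11.6, 10.7, 11.6 and 12.0 CPM in LLC1 against 0.272, 0.199, 0.228 and 0.560 CPM in MLE12 (log2 fold change 5.28 ± 0.18, adjusted p = 2.4e-15). Peg12, an intronless gene related to the GSK-3 binding protein FRAT, had 6.17, 5.22, 5.97 and 6.10 CPM in LLC1 against 0.0647, 0, 0 and 0.0200 CPM in MLE12 (log2 fold change 7.97 ± 0.33). Of the 6 Peg12 counts in MLE12, 5 were in replicate 1, and without that library the log2 fold change was 9.68. For both genes the lowest LLC1 library exceeded the highest MLE12 library. Magel2, a MAGE family gene between them, was low, with 24 counts over LLC1 and 0 over MLE12, at least 10.6-fold higher in LLC1. No Magel2 count was seen in LLC1 replicate 1, so the lines overlapped at 0.

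Not all genes of that domain followed. Mkrn3, an intronless ubiquitin ligase gene between Magel2 and Peg12, had 1.57, 1.55, 1.53 and 1.03 CPM in LLC1 against 0.879, 0.994, 0.622 and 1.16 CPM in MLE12. The lines overlapped, and the log2 fold change of 0.65 ± 0.22 had an adjusted p of 0.0130. Without MLE12 replicate 3 it was 0.49 with an adjusted p of 0.0598, and over all alternatives the adjusted p ran from 0.00428 to 0.0598. Ube3a, the ubiquitin ligase gene that is maternally expressed in neurons, was slightly higher in MLE12 (51.3 ± 2.44 CPM in LLC1 against 64.1 ± 2.62 CPM in MLE12; -0.32 ± 0.05). D7Ertd715e, which RefSeq lists as a synonym of the antisense transcript Snhg14 downstream of Snrpn, was at 56.3 CPM in LLC1 against 28.9 CPM in MLE12 (0.97 ± 0.06). It shares 1803 exonic bases with Ube3a on the opposite strand, so that reads there cannot be assigned. Gm7367, the other tested neighbour within 200 kb of a member and named after its value was seen, had a log2 fold change of 0.29.

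**Figure D3:**
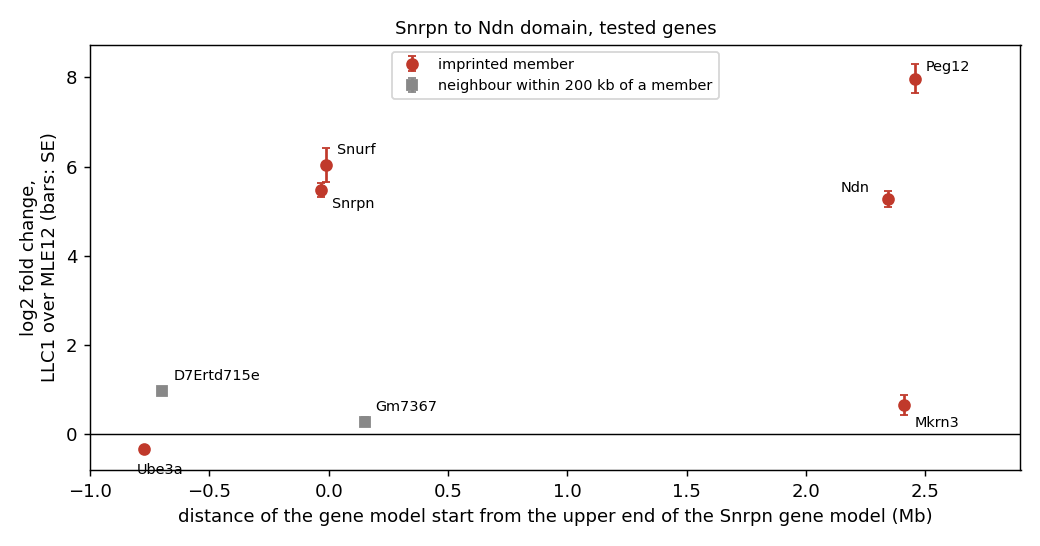
Log2 fold change (LLC1 over MLE12, with SE) of the tested genes of the Snrpn to Ndn domain against their distance from the upper end of the Snrpn gene model in Mb. Snrpn, Snurf, Ndn and Peg12 lie between 5.28 and 7.97, while Mkrn3, Ube3a and the neighbours D7Ertd715e and Gm7367 (grey squares) lie between -0.32 and 0.97.

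The Peg10 domain of proximal chromosome 6 held genes that differed in opposite directions. Peg10 is a paternally expressed gene derived from a retrotransposon and needed for the placenta (ENSMUSG00000092035, 4747306 to 4760517). It had 37.5, 36.5, 36.6 and 32.5 CPM in LLC1 against 8.92, 8.31, 8.94 and 8.70 CPM in MLE12, without overlap (2.04 ± 0.06, adjusted p = 2.6e-16). Sgce, the epsilon-sarcoglycan gene, is also paternally expressed and starts next to Peg10 on the opposite strand. It was not called, with 13.9 ± 0.656 CPM in LLC1 against 13.3 ± 0.381 CPM in MLE12 (0.06 ± 0.07, adjusted p = 0.431). The ratio of Peg10 to Sgce in CPM was 2.42 to 2.82 in the LLC1 libraries and 0.611 to 0.679 in the MLE12 libraries.

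Ppp1r9a, which encodes the actin-binding protein neurabin and is maternally expressed in some tissues, went the other way in that domain. It had 1.69, 1.31, 1.55 and 1.22 CPM in LLC1 against 44.4, 45.8, 44.5 and 43.0 CPM in MLE12 (log2 fold change -4.96 ± 0.08, adjusted p = 2.1e-20). The lines did not overlap. Asb4, the remaining member, had 2 counts over LLC1 and 23 over MLE12, a ratio of 8.64 in favour of MLE12 with a 95% counting interval of 2.14 to 75.6. Of the 3 tested unlisted neighbours of this domain, LLC1 had the higher level for 1 and MLE12 for 2. One of those higher in MLE12 was Pdk4, a kinase gene of pyruvate metabolism near Asb4 (0.149 CPM in LLC1 against 13.3 CPM in MLE12, log2 fold change -6.43 ± 0.17).

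In the distal chromosome 7 cluster, which joins the H19 and Kcnq1 domains, H19, Phlda2, Ascl2 and Slc22a18 were near the limit of detection. Cd81, Tssc4 and Kcnq1ot1 were expressed in both lines. Cdkn1c, outside the member list and chosen after its values were seen, was at 0.0109 ± 0.0127 CPM in LLC1 against 5.74 ± 0.694 CPM in MLE12. Cd81, a tetraspanin gene (ENSMUSG00000037706, 143052739 to 143067934), had 72.8, 70.6, 77.7 and 77.8 CPM in LLC1 against 178, 171, 182 and 188 CPM in MLE12 (-1.26 ± 0.05). The adjacent Tssc4, whose product takes part in assembly of the splicing machinery, had 12.96, 11.7, 14.7 and 13.4 CPM in LLC1 against 43.6, 41.8, 46.8 and 41.5 CPM in MLE12 (-1.72 ± 0.07). Both genes were higher in MLE12 without overlap.

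Kcnq1ot1, the long antisense RNA that starts inside Kcnq1 and silences its neighbours on the paternal chromosome, went the other way. It had 75.6, 96.2, 57.6 and 80.1 CPM in LLC1 against 31.7, 37.3, 26.7 and 26.4 CPM in MLE12, with every LLC1 library above every MLE12 library (1.34 ± 0.19, adjusted p = 4.2e-04). Tested against a fold of 2 its adjusted p was 0.0497, and that call ended in 12 of 17 alternatives, with adjusted p-values from 0.05004 to 0.228 there. The potassium channel gene Kcnq1 itself was low (0.460 ± 0.198 CPM in LLC1 against 0.183 ± 0.0571 CPM in MLE12; 1.29 ± 0.37, adjusted p = 0.00382). Their exons overlap by 121 bases on opposite strands. Kcnq1 had 93 counts over LLC1 and 54 over MLE12, against 15417 and 8687 for Kcnq1ot1. Reads of Kcnq1ot1 in that stretch could thus enter the Kcnq1 value. The gene model of Kcnq1ot1 spans 84395 bases, so per length its level was only 0.917 RPKM in LLC1 and 0.362 RPKM in MLE12, below the 7.50 RPKM in LLC1 and 24.7 RPKM in MLE12 of Tssc4.

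The remaining members of the cluster were close to the limit of detection. H19, the non-coding RNA that hosts miR-675 and is abundant in fetal tissues, had 19 counts over LLC1 and 0 over MLE12, at least 8.43-fold higher in LLC1, at 0.0930 CPM there. Phlda2, a growth-restraining gene of the placenta, had 17 counts over LLC1 and 48 over MLE12. Ascl2, a transcription factor gene of the trophoblast, had 4 counts over LLC1 and 9 over MLE12. Slc22a18, a transporter gene, had 1 count over LLC1 and 6 over MLE12, a ratio of 4.51 in favour of MLE12 with a 95% counting interval of 0.547 to 207. None of these was tested. Of the 7 tested neighbours of the cluster, LLC1 had the higher level for 5 and MLE12 for 2, and Mrpl23, a mitochondrial ribosomal protein gene beside H19, had a log2 fold change of 2.06 ± 0.09.

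**Figure D4:**
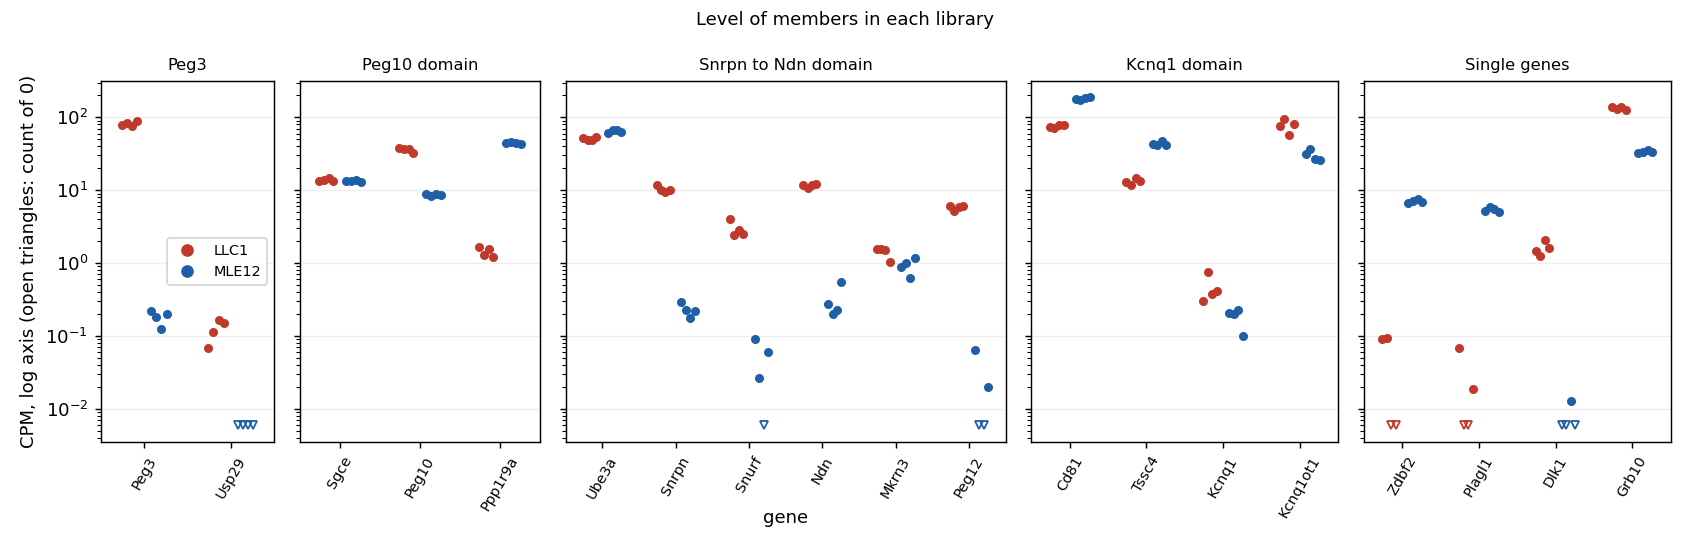
Level in CPM (log axis) of members of 4 domains and of 4 further members, in each of the 4 LLC1 libraries (red, left of each pair) and the 4 MLE12 libraries (blue). Open triangles at the bottom are counts of 0. Peg3, Snrpn, Snurf, Ndn, Peg12, Peg10, Kcnq1ot1, Dlk1 and Grb10 are higher in every LLC1 library, and Ppp1r9a, Cd81, Tssc4, Zdbf2 and Plagl1 in every MLE12 library.

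The Dlk1 to Dio3 domain of chromosome 12 was at or near the limit of detection in MLE12, and in LLC1 apart from Dlk1. Dlk1, a paternally expressed membrane protein gene that restrains adipocyte differentiation, was its only tested member, with 1.48, 1.27, 2.07 and 1.64 CPM in LLC1 against 0, 0, 0.0127 and 0 CPM in MLE12. With a single count in MLE12, the ratio of LLC1 to MLE12 was 423 with a 95% counting interval of 75.4 to 16800 (adjusted p = 1.5e-11). The fitted log2 fold change was 8.16 ± 0.50, and 9.52 without MLE12 replicate 3, which held that count. The maternally expressed non-coding RNAs of the domain did not share that level. Meg3, a growth-restraining RNA often lost in tumours, had 7 counts over LLC1 and 2 over MLE12, a ratio of 4.66 with an interval of 0.887 to 45.9. The snoRNA host Rian had 5 counts over LLC1 and 12 over MLE12, and the microRNA host Mirg had 10 over LLC1 and 4 over MLE12. Rtl1, a gene of retrotransposon origin needed for placental vessels, had 4 counts over LLC1 and 5 over MLE12. Dio3, which inactivates thyroid hormone, had 0 counts over LLC1 and 20 over MLE12, at least 5.01-fold higher in MLE12. MicroRNAs and snoRNAs made from these hosts are not captured as such by poly-A selection.

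Plagl1 and Zdbf2, each on its own among the members, were present in MLE12 and nearly absent from LLC1. Plagl1, a zinc finger transcription factor known to regulate other imprinted genes and to arrest the cell cycle (ENSMUSG00000019817, chromosome 10, 13060504 to 13131694), had 0.0693, 0, 0 and 0.0190 CPM in LLC1 against 5.16, 5.84, 5.62 and 4.96 CPM in MLE12 (-7.92 ± 0.32, adjusted p = 2.0e-14). Of its 4 counts in LLC1, 3 were in replicate 1, and without that library the log2 fold change was -9.30. Zdbf2, a zinc finger gene (ENSMUSG00000027520, chromosome 1, 63273265 to 63314576), had 0.0924, 0.0935, 0 and 0 CPM in LLC1 against 6.79, 7.20, 7.52 and 6.96 CPM in MLE12 (-7.22 ± 0.30, adjusted p = 4.0e-14). Its 9 counts in LLC1 were in replicates 1 and 2, and the log2 fold change was -7.90 without LLC1 replicate 2. No LLC1 library reached any MLE12 library for either gene. The 4 tested neighbours of Plagl1 were all higher in MLE12, with log2 fold changes from -2.27 to -0.14. The 7 of Zdbf2 were all higher in LLC1, from 0.49 to 1.45. Of these, Gm27390 and Snora41 lie within the span of Eef1b2, so the 7 are not all separate. Over all genes tested 40.7% were higher in LLC1 and 40.9% in MLE12.

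Grb10 and Blcap were more than 2-fold higher in LLC1. Grb10, an adaptor that restrains insulin and growth factor receptor signalling and is maternally expressed outside the brain (ENSMUSG00000020176, chromosome 11, 11930508 to 12038683), had 137, 128, 138 and 125 CPM in LLC1 against 32.4, 33.0, 35.3 and 33.9 CPM in MLE12 (1.97 ± 0.05, adjusted p = 5.5e-18). Blcap had 49.1, 52.1, 48.6 and 47.7 CPM in LLC1 against 22.3, 22.0, 21.1 and 22.8 CPM in MLE12 (1.16 ± 0.05). Tested against a fold of 2, Blcap had an adjusted p of 0.00150, and of 17 alternatives only scaling by library totals ended that call (adjusted p = 0.129). Nnat, a paternally expressed proteolipid gene inside the Blcap intron, was lower in level (4.27 ± 0.517 CPM in LLC1 against 2.15 ± 0.450 CPM in MLE12; 0.99 ± 0.16). Both genes of this domain were thus higher in LLC1 in every library. Their exons do not overlap, but Nnat held 9.09% as many counts as Blcap. The ratio of Nnat to Blcap in CPM was 0.0756 to 0.0927 in the LLC1 libraries and 0.0762 to 0.119 in the MLE12 libraries. Whether unspliced reads of Blcap entered the Nnat value was not tested, so they may not be separate results.

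The other tested members had fitted differences of less than 2-fold. Impact, an inhibitor of the translation-control kinase GCN2, stood at 41.0 ± 2.51 CPM in LLC1 against 23.3 ± 1.80 CPM in MLE12 (0.82 ± 0.06). Trappc9, a subunit of a vesicle tethering complex, was at 50.5 ± 3.16 CPM in LLC1 against 34.4 ± 2.93 CPM in MLE12 (0.55 ± 0.06). Mest, a paternally expressed hydrolase family gene of mesoderm, was at 7.89 ± 0.388 CPM in LLC1 against 6.203 ± 0.287 CPM in MLE12 (0.35 ± 0.09). These 3 were higher in LLC1. Copg2, a coat protein gene that overlaps Mest by 912 exonic bases on the opposite strand, was not called (71.3 ± 3.17 CPM in LLC1 against 69.7 ± 1.20 CPM in MLE12; 0.03 ± 0.04, adjusted p = 0.485). Mest held 9.79% as many counts as Copg2, so reads of Copg2 in that stretch could enter the Mest value. Nap1l5, a nucleosome assembly family gene, was low and not called (0.130 ± 0.131 CPM in LLC1 against 0.222 ± 0.0440 CPM in MLE12; -0.81 ± 0.52, adjusted p = 0.153). Of its 24 counts in LLC1, 14 were in replicate 1, and without that library the value was -1.71 with an adjusted p of 0.00707, in a range of 0.00707 to 0.402 over the alternatives. Herc3, the neighbour in whose span it lies, was at 5.35 CPM in LLC1 against 42.6 CPM in MLE12 (-2.99 ± 0.10).

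Gnas and Inpp5f were slightly higher in MLE12. Gnas, which encodes the stimulatory G protein alpha subunit and several imprinted transcripts (ENSMUSG00000027523, chromosome 2, 174284320 to 174346744), had the highest level of all members, at 658 ± 26.7 CPM in LLC1 against 785 ± 19.97 CPM in MLE12 (-0.26 ± 0.04). Per length it also led, with 58.8 RPKM in LLC1, while in MLE12 Cd81 (79.1 RPKM) exceeded it (70.2 RPKM). Gm20721, an opposite-strand gene model within Gnas, held 97.7% as many counts as Gnas, so the values of these overlapping models cannot be told apart. Inpp5f, a phosphoinositide phosphatase gene with an imprinted isoform that gene counts cannot separate, was at 44.5 ± 1.74 CPM in LLC1 against 54.9 ± 0.936 CPM in MLE12 (-0.30 ± 0.05).

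Airn, the antisense RNA that silences Igf2r on the paternal chromosome, was present in both lines. It had 22.0, 26.7, 20.4 and 22.1 CPM in LLC1 against 16.7, 16.5, 13.5 and 14.4 CPM in MLE12 (0.58 ± 0.09, adjusted p = 8.4e-06). Igf2r, the receptor that clears IGF2 and chosen after its values were seen, was also higher in LLC1 (261 ± 8.90 CPM in LLC1 against 174 ± 10.1 CPM in MLE12; 0.59 ± 0.05). The spread between libraries of a line was wide for both Airn and Kcnq1ot1. The coefficient of variation of Kcnq1ot1 was 20.5% in LLC1 and 16.8% in MLE12, and that of Airn 12.0% in LLC1 and 10.5% in MLE12. For the other 11 members of at least 10 CPM in both lines it was 3.87% to 9.29% in LLC1 and 1.71% to 8.52% in MLE12. LLC1 replicate 2 was the highest and LLC1 replicate 3 the lowest LLC1 library for both RNAs, and MLE12 replicates 1 and 2 were the higher pair in MLE12. The part of unspliced RNA in this spread was not tested.

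**Figure D5:**
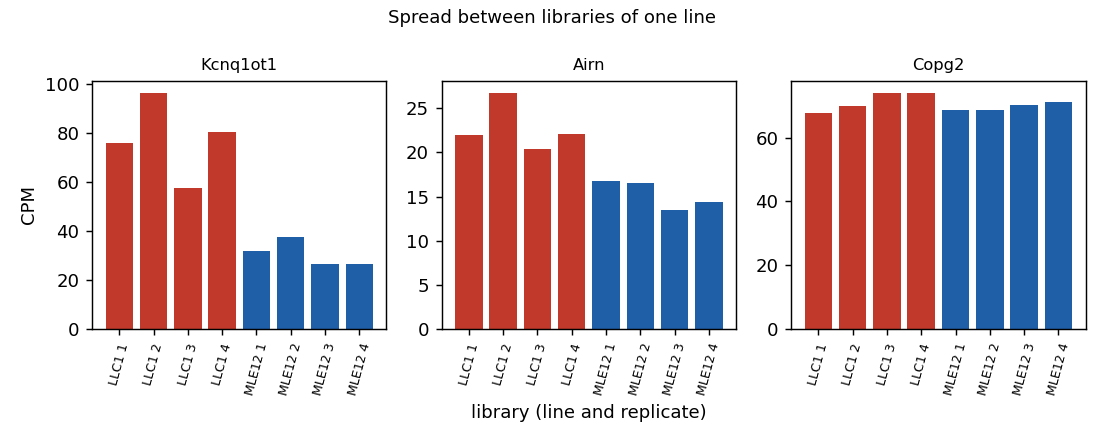
Level in CPM of Kcnq1ot1, Airn and, for contrast, the coat protein gene Copg2 in each LLC1 library (red) and MLE12 library (blue), 1 bar per library. Kcnq1ot1 ranges from 57.6 to 96.2 CPM within LLC1, while Copg2 ranges from 67.6 to 74.1 CPM there.

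Of 48 other imprinted genes or transcripts of these and further domains, 44 had a row and 26 were tested. Of these 15 differed toward LLC1 (8 past a fold of 2) and 10 toward MLE12 (5 past a fold of 2), and 1 was not called, beside 81.6% of all genes tested called and 33.7% past a fold of 2. Their median log2 fold change was 0.34. The largest differences toward LLC1 among those of at least 10 CPM were Slc38a4, an amino acid transporter (103 ± 2.08 CPM in LLC1 against 0.360 ± 0.0574 CPM in MLE12; 8.16 ± 0.08), Ampd3 (1.99 ± 0.09), Atp10a (1.33 ± 0.06) and Commd1 (0.99 ± 0.05). Toward MLE12 they were the matrix proteoglycan gene Dcn (2.34 ± 0.117 CPM in LLC1 against 319 ± 15.8 CPM in MLE12; -7.09 ± 0.06), Phactr2 beside Plagl1 (-2.76 ± 0.07), Dhcr7 (-1.27 ± 0.05) and Pon2 (-0.58 ± 0.06).

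A few more were chosen after their values were seen because they belong to domains described above. Cdkn1c, the growth-restraining gene of the Kcnq1 domain, had 2 counts over LLC1 and 1600 over MLE12, a ratio of 601 in favour of MLE12 with a 95% counting interval of 166 to 4970. Igf2, the growth factor gene beside H19, had 0 counts over LLC1 and 19 over MLE12, at least 4.76-fold higher in MLE12. MLE12 replicate 4 held no Igf2 count either, so the lines overlapped at 0. Both genes of the H19 domain were thus near the limit in both lines. Nespas, an antisense transcript of the Gnas domain, was at 8.24 ± 1.17 CPM in LLC1 against 0.0509 ± 0.0545 CPM in MLE12 (7.22 ± 0.27), although Gnas itself was slightly higher in MLE12. Nespas shares 988 exonic bases with Gnas on the opposite strand.

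A list of 23 imprint maintenance and chromatin factors also held Tet1, Tet2 and Tet3, enzymes of DNA demethylation. Of the 23 factors 21 were tested. Toward LLC1 differed 8 (3 past a fold of 2, Tet1 and Tet2 among them) and toward MLE12 11 (2 past a fold of 2), while 2 were not called. Over all genes tested 81.6% were called and 33.7% were past a fold of 2. The median log2 fold change of the factors was -0.11, beside 0.02 for all genes. Toward LLC1 the largest differences among those of at least 10 CPM were Tet2, an enzyme of DNA demethylation (40.5 ± 3.43 CPM in LLC1 against 12.6 ± 0.586 CPM in MLE12; 1.68 ± 0.07), the chromatin gene Arid4a (0.83 ± 0.05), Uhrf1 (0.26 ± 0.04) and Dnmt3a (0.26 ± 0.05). Toward MLE12 they were the de novo methyltransferase gene Dnmt3b (6.72 ± 0.258 CPM in LLC1 against 16.4 ± 0.653 CPM in MLE12; -1.29 ± 0.07), Zfp57 (19.3 ± 1.52 CPM in LLC1 against 44.5 ± 1.46 CPM in MLE12; -1.20 ± 0.06), the insulator gene Ctcf (-0.84 ± 0.04) and the ZFP57 partner Trim28 (-0.71 ± 0.04). Dnmt1, which copies methylation at replication and was also chosen after its values were seen, was at 337 ± 22.2 CPM in LLC1 against 372 ± 22.3 CPM in MLE12 (-0.14 ± 0.05). Dnmt3l, the cofactor of imprint establishment in germ cells and chosen likewise, was at 2.79 ± 0.492 CPM in LLC1 against 0.0133 ± 0.0265 CPM in MLE12 (7.42 ± 0.44).

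Genes beside the imprinted members were compared to place these differences. Within 200 kb of a member, 52 unlisted genes of at least 1 CPM in a line were tested, of which 28 differed toward LLC1, 21 toward MLE12, and 3 were not called. Called were 94.2% of them, beside 81.6% of all genes and 89.3% of tested members. Past a fold of 2 were 34.6% of them, beside the 33.7% of all genes and the 53.6% of tested members. Some of the 52 are not separate from the imprinted genes. D7Ertd715e is a synonym of Snhg14, which is on the list of other imprinted genes, and Gm20721 lies within Gnas. R74862 and Trpm5 share exonic bases with Cd81 and Tssc4, and Gm23833, Gm16574, Gm7162 and Mas1 overlap the span of Airn. How far reads of members entered these shares was not tested. The neighbours were taken by level and the members by name, so that the shares rest on different selections and no test of their difference was made.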

How the data were processed

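Poly-A RNA of 4 LLC1 and 4 MLE12 libraries was sequenced as paired ends, and groups follow the cell line in the labels. The deposited values are raw counts per gene. The submitters' processing notes name the build mm10 and the tools TopHat2, CASAVA, edgeR and featureCounts. Their versions, the annotation, the counting strand and the handling of reads shared by gene models are not given in the sources used here. RPKM were computed from these counts with the deposited gene length in bases.

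These counts were fitted by line in edgeR 4.0.16 under R 4.3.3: filterByExpr by line (18546 of 43346 genes), TMM scaling, glmQLFit (robust) and glmQLFTest without covariates, with Benjamini-Hochberg adjusted p-values over all genes tested, called under 0.05, and glmTreat against a fold of 2. The fit was checked on simulated data. CPM use scaled library totals. Bounds (observed level over that of 3 counts in the other line) and counting intervals (exact binomial, 95%) use plain totals. PCR copies are not independent molecules, so these cover counting error only. Of a name on several rows, the row with most counts was used. Domains join members on a chromosome with starts within 3 Mb. Strand and exon overlaps are from GENCODE M21, which held all 41 gene IDs, 24 at the same coordinates. Per-library values are given for called members past 2-fold that reached 1 CPM in either line. Motifs were sought in the 250 upstream bases of RefSeq promoters, on both strands. Members, lists and alternatives were chosen with earlier results of these data known.

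Libraries within a line differed beyond sampling noise (chi-square per degree of freedom 6.35 to 53.1), so none was a duplicate. Alternatives were DESeq2 1.42.0, limma-voom (limma 3.58.1), library totals, upper-quartile factors, DESeq2 size factors, removal of the 20 most abundant genes, no filter, at least 1 CPM in 4 libraries, each library left out and the replicate block.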

Additional observations from a re-analysis of the deposited data

Results flagged for a closer look

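Among 43 sets of 4 libraries of a line in which a member averaged at least 1 CPM, a single value stood apart from the other 3. Mkrn3 was at 1.03 CPM in LLC1 replicate 4, where the other LLC1 libraries held 1.53 to 1.57 CPM, and the gap to the nearest was 0.923 of the whole range. Chance alone sets apart about 1 in 20 such sets, and 2.33% were found here.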

How the results depend on the processing

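Over 17 alternatives the 28 tested members gave 474 values, of which 468 kept their direction and their side of the adjusted p threshold. Sgce turned to -0.0418 with library totals alone, and Copg2 to -0.0642 with library totals and to -0.0084 with no filter, none of them called in any setting. Nap1l5 became called with limma-voom (-1.12, adjusted p = 0.0456) and without LLC1 replicate 1 (-1.71, adjusted p = 0.00707), in a range of adjusted p from 0.00707 to 0.402. Mkrn3 lost its call without MLE12 replicate 3, as given above. Peg12, Snurf, Plagl1, Zdbf2 and Dlk1, with few counts in the lower line, moved by over 1.5 times without 1 library, and Dlk1 was also at 7.39 with limma-voom, each still called. The cause was not tested. Over all alternatives 16 to 21 members were called toward LLC1 and 8 to 10 toward MLE12, the highest counts with no filter, where H19, Usp29, Magel2, Zim1, Asb4 and Dio3 were tested too and called. With each library left out in turn they were 16 to 17 toward LLC1 and 8 to 9 toward MLE12, the members past 2-fold 9 to 10 toward LLC1 and 5 toward MLE12, and the genes called 14939 to 15422, beside 15132. Over all alternatives the members past 2-fold were 8 to 13 toward LLC1 and 5 to 6 toward MLE12. Those toward LLC1 were fewest with library totals alone and most with no filter. Scaling moved the median of all genes by less than 0.1, between -0.08 and 0.07.

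The replicate numbers in the titles gave no pairing: same-numbered libraries had correlations of deviations from the line means of -0.0646 to 0.108. With the replicate block 14795 genes were called, with 17 members called toward LLC1 and 8 toward MLE12. The 13 members that were not tested had too few counts to pass the filter.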
